A study of Mus musculus with 32 samples.

Results

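Tumour differentiated macrophages (TDMA) were compared with tumour microglia (TM), both sorted by flow cytometry from brains of chimeric mice whose implanted tumours grew from GL-261, a glioma line of mice. The libraries were chosen by population label alone: 8 TDMA and 8 TM libraries, 16 of 32 in the series. No expression value entered that choice. The remaining libraries were 8 of tumour undifferentiated macrophages (TUMA) and 8 of microglia from mice with no tumour, and they shared the estimate of the spread.

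In each of TDMA and TM, 4 libraries came from C57BL/6J recipients that had received a PEP-3 graft (called WT recipients), and 4 came from Pep3/CD45.1 recipients that had received a WT graft. All 16 libraries therefore came from grafted, tumour-bearing mice, and none came from an ungrafted mouse with a tumour. The labels put WT-recipient TDMA and Pep3-recipient TM in experiment 3, and Pep3-recipient TDMA and WT-recipient TM in experiment 4. Experiment therefore cannot be told apart from a difference between recipient strains in TDMA minus TM. Where TDMA carry the graft's genotype and TM the recipient's, TDMA minus TM within a recipient strain also sets PEP-3 cells against WT cells, or the reverse. Experiment 3 would then hold PEP-3 cells and experiment 4 WT cells. The genotype of the sorted cells could then not be told apart from either. The sources used here give no sorting gates, no ages of the mice and no number of animals behind a library. P-values measure the spread between libraries, which may be technical.

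Microglia are macrophages that live within brain tissue. They are seeded from the yolk sac before birth and maintain themselves there with little input from blood. Their gene programme depends on signals such as TGF-beta and on the receptor Csf1r. When a tumour grows in the brain, monocytes enter from blood and become macrophages that lie beside the microglia. The populations share most macrophage genes, so they are told apart by microglial identity genes on one side and by genes of monocyte descent on the other.

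The authors' table gave 17586 genes in signed scores, and every gene had a mean of 0 over the 32 libraries. A score is therefore a position relative to the other libraries and not an expression level. Scores of different genes cannot be ranked as abundance, and differences are in units of the score, with no fold. Sequencing depth is unknown. The table held no variation along 11 directions across the libraries, and these were terms of the fit. TDMA 28, TDMA 31 and TM 27 kept 12.4%, 16.9% and 39% of their own variation, and every other library of TDMA and TM kept over 50%. These libraries are named where leaving out 1 of them changed the call of a named gene. Calls lost only when all 3 were left out are counted below and are not marked at every gene. The highest correlation between any pair of the 16 libraries was 0.771, so none was a copy of another.

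TDMA libraries sat higher than TM libraries over the table as a whole. The median score of a library averaged 0.290 ± 0.172 in TDMA and -0.331 ± 0.197 in TM (SD, n = 8 each). In the fit of the deposited scores, 6510 genes were higher in TDMA (37% of 17586) and 1116 were lower (6.35%), with limma at an adjusted p below 0.05. The median difference, TDMA minus TM, was 0.65. After centring every library on its own median, 3486 rose (19.8%), 3385 fell (19.2%) and the median difference was -0.02. All 3486 of those rises and all 1116 deposited-score falls were called in both scalings, and no call changed direction between them. A rise called in both scalings is thus the stricter kind of rise, whereas a fall called in the deposited scores is the stricter kind of fall. Scores of the groups did not overlap for 1477 genes (8.4%).

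The overall shift was uneven across genes. Olfactory receptor genes, which sense odours in the nose, rose at 372 of 544 and fell at 0, with a median difference of 1.38. Vomeronasal receptor genes, which sense pheromones, rose at 179 of 233 and fell at 0, with a median of 1.67. After library medians were subtracted, 132 and 109 of these genes were still higher. By contrast, ribosomal protein and constitutive proteasome genes, used by every cell, had a median difference of 0.13 over 63 genes, with 7 rises and 2 falls. By the SD of a gene over all libraries, the fifth of genes with the least spread had a median difference of 0.03, and the fifth with the most had 1.67. The receptor families were picked as a yardstick after their values were seen, and their part in other rises was not tested. Their 95th percentile was a difference of 2.44. Of the genes called higher in both scalings, 753 lay above it, 332 of them with no overlap of the groups. Any rise given below of less than 2.44 in the deposited scores lies under this yardstick, also where that is not said again. Cxcl12, Nlrc4, Clec7a, H2-Eb1 and Plin2 are examples.

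**Figure D1:**
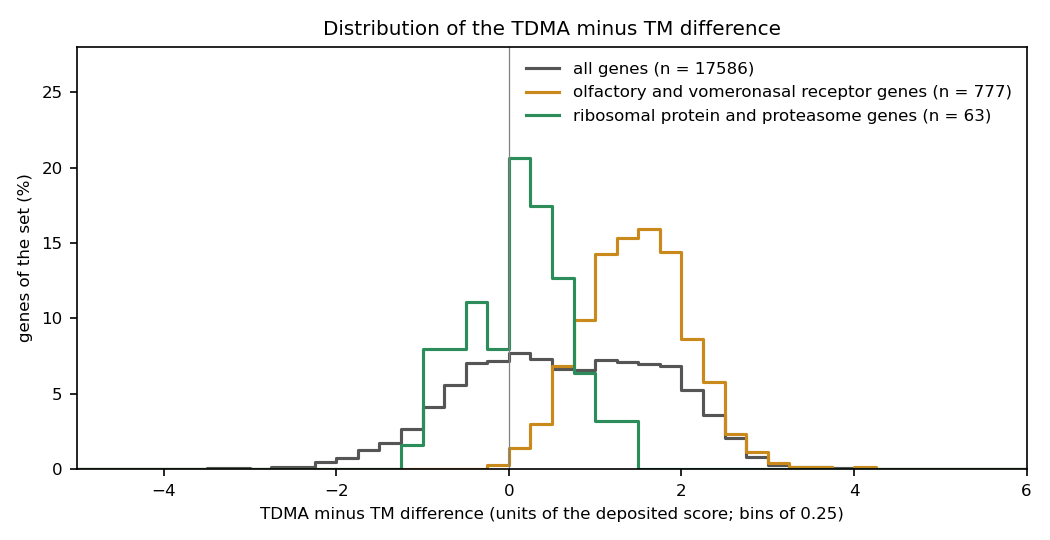
Distribution of the TDMA minus TM difference, in units of the deposited score (x axis, bins of 0.25), as the share of each gene set (y axis). The 777 olfactory and vomeronasal receptor genes centre well above 0, with a median of 1.49, whereas the 63 ribosomal protein and proteasome genes centre near 0.

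The counts rested in part on the libraries that had kept little of their own variation. Without TM 27 the fit called 4162 genes higher and 735 lower, and without TDMA 28 it called 4627 higher and 420 lower. With TDMA 28, TDMA 31 and TM 27 all left out, an alternative added after the data were seen, 662 genes were higher and 81 were lower. With every library that kept under 50% left out and no terms for the missing directions, 4620 genes were higher and 836 lower. The fit without TDMA 28, TDMA 31 and TM 27 kept those terms. Of the 7626 genes called with all libraries, 7407 (97.1%) had the same sign of difference in that smaller fit. The smaller fit reused the remaining libraries, with which these genes had been called, and this favours a shared sign. There, 80 of the 153 genes named here lost their call, and 0 reversed sign. Among the 80 were P2ry12, Csf1r, Itga4, Il1a, Mmp13, Trem2 and C1qb. In the fit without any library under 50% and without direction terms, 5 of the 153 lost theirs. Of the 16 libraries, each was also left out alone: 2802 rises and 239 falls were called in both scalings and in every such fit.

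The 5 marker genes chosen with the population labels separated the groups with no overlap. Acp5, the tartrate-resistant acid phosphatase of osteoclasts and some macrophages, scored 1.94 to 3.91 (median 3.37) in TDMA, against -3.43 to -1.35 (median -1.82) in TM. The difference was 5.48 ± 0.41 (SE; limma, adjusted p = 2.16e-08), the largest rise by the naming rule. F7, the protease factor that starts clotting with tissue factor, scored 0.26 to 3.87 (median 2.63) in TDMA and -2.93 to -1.79 (median -2.36) in TM, a difference of 4.96 ± 0.47. Fabp5, a carrier of fatty acids inside the cell, scored 0.75 to 3.48 (median 2.87) in TDMA and -2.75 to -0.66 (median -2.24) in TM, a difference of 4.85 ± 0.43. Tgfbi, a secreted matrix protein induced by TGF-beta, scored 0.79 to 3.27 (median 2.61) in TDMA and -2.97 to -1.24 (median -2.44) in TM, a difference of 4.58 ± 0.33. Every TDMA library lay above 0 and every TM library below 0 for these 4 genes. Siglech, a sialic acid-binding receptor of microglia, went the other way and scored -3.21 to -0.23 (median -1.72) in TDMA and 0.54 to 1.90 (median 1.26) in TM, a difference of -3.02 ± 0.40. The adjusted p-values of F7, Fabp5, Tgfbi and Siglech were 7.85e-07, 3.17e-07, 2.16e-08 and 1.58e-05. All 5 genes kept their calls without TDMA 28, TDMA 31 and TM 27, with differences of 5.79, 4.14, 4.77, 4.56 and -2.54.

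Marker lists of both lineages followed the labels. All 20 of the 20 microglia markers fell, with a median difference of -2.44. Their mean score ran from -2.20 to -0.61 in TDMA libraries and from 0.73 to 1.46 in TM libraries. Of 19 markers of blood-derived macrophages, 17 rose and 0 fell, with a median difference of 2.89, and 13 rises held with library medians subtracted. Their mean score ran from 0.17 to 2.11 in TDMA and from -1.89 to -0.73 in TM. The markers Plac8 and Lyz2 were not called, with differences of -0.51 and 0.57. In such bulk samples, fewer cells of a type and less RNA per cell cannot be told apart. Without TDMA 28, TDMA 31 and TM 27, 13 microglia markers fell and 8 blood-derived macrophage markers rose. All 20 and 17 kept their sign, which the libraries shared with the full fit favour. Without any library that kept under 50% and without the direction terms, 20 fell and 16 rose. The lists were written with earlier results of these data known and are no independent test of the labels. For the gene lists below, counts are of the deposited scores unless said otherwise, where 37% of all genes rose and 6.35% fell. The pair of counts given for centred libraries has library medians subtracted, where 19.8% of all genes rose and 19.2% fell. A library is named where its absence moved a count of 4 or more by over 1.5 times. Counts of 3 or fewer moved by up to 3 genes when a library was left out.

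**Figure D2:**
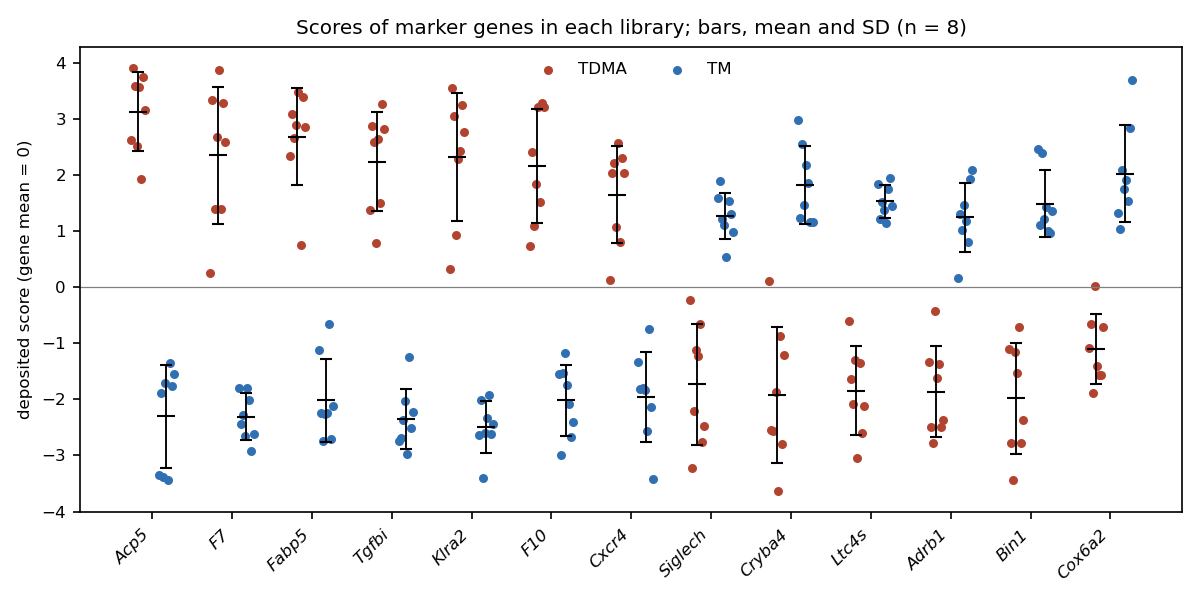
Deposited score (y axis) of 13 genes (x axis) in each library, TDMA in red and TM in blue, with the mean and SD of 8 libraries as bars. The first 7 genes are higher in every TDMA library than in any TM library, from Acp5 with medians of 3.37 in TDMA and -1.82 in TM to Cxcr4 with medians of 2.03 in TDMA and -1.82 in TM, and the other 6 are lower.

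F7 and F10 are neighbours on chromosome 8 and encode clotting proteases that act one after the other. Both were among the 15 largest rises. F10, coagulation factor X, scored 0.74 to 3.28 (median 2.13) in TDMA and -2.99 to -1.17 (median -1.91) in TM, a difference of 4.51 ± 0.40 (SE; adjusted p = 3.17e-07). Their starts lie 11274 bases apart in the same orientation, with no other RefSeq gene lying wholly between. Cryba4 and Crybb1, lens crystallin genes, are neighbours on chromosome 5, and both fell. Cryba4 scored -3.63 to 0.11 (median -2.20) in TDMA and 1.16 to 2.99 (median 1.66) in TM, a difference of -3.74 ± 0.51 (adjusted p = 1.97e-05). Crybb1 scored -2.93 to -0.51 (median -1.64) in TDMA and 1.38 to 1.94 (median 1.49) in TM, a difference of -3.25 ± 0.47. Taken over all their RefSeq transcripts, the crystallin genes span stretches that overlap by 9063 bases, although from the starts of the windows printed for them they run apart. The library kit does not mark strand, so reads in the overlap cannot be assigned to one of them. No TDMA library overlapped a TM library for any of the 4 genes.

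The promoter windows of these pairs are shown because the members of each pair moved together. Each window holds 250 bases before the start and 50 after, 5′ to 3′ on the gene's strand, from RefSeq on GRCm38.p6, which is not the build of the deposited table. Capitals mark matches to the motifs below.
F7 (chr8:13025784-13026083, plus strand): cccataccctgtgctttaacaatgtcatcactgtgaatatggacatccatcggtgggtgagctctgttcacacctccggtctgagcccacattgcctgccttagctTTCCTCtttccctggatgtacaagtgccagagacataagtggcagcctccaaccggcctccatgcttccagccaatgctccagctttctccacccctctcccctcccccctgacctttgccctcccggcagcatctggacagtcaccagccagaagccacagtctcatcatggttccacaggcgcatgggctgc
F10 (chr8:13037058-13037357, plus strand): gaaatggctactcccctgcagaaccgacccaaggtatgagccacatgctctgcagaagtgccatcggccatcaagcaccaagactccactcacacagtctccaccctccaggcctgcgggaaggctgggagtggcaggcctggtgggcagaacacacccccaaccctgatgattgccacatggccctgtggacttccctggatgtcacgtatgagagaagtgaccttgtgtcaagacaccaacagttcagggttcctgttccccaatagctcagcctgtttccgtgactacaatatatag
Cryba4 (chr5:112252469-112252768, minus strand): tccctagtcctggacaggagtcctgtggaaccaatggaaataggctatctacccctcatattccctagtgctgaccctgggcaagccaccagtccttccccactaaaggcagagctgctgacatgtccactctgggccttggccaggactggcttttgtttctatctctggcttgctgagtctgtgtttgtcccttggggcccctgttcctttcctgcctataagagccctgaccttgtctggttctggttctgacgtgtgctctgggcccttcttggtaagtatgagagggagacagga
Crybb1 (chr5:112255570-112255869, plus strand): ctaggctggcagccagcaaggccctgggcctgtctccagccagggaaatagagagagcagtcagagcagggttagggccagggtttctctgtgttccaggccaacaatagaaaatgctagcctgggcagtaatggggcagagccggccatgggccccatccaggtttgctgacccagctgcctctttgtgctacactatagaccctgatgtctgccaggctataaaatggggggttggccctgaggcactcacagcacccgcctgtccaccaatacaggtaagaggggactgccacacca

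Motifs were searched on both strands: the ETS-type GAGGAA that PU.1 can bind, the RUNX-type TGTGGT and the AP-1-type TGANTCA. None of these motifs overlaps another in the 4 windows. The F7 window held 1 match, GAGGAA on the minus strand, at bases 107 to 112 of the window. The F10, Cryba4 and Crybb1 windows held 0 matches to any of the motifs. Over all 32851 promoter windows of the same length, 28.3% held GAGGAA, 16.8% TGTGGT and 7.81% TGANTCA. A match in these letters is a description only.

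Beyond these genes, the 15 largest rises joined receptors, ion transport, lipid signalling and transcription. The rule took the largest differences called in both scalings, leaving out symbols that start with Gm and a digit or end in Rik. Of the 15 rises, 14 had no overlap between the groups, and all 15 were called without each library in turn. Picking genes for large differences in these libraries favours groups that do not overlap. Klra2, a receptor of the Ly49 family, scored 0.32 to 3.55 (median 2.60) in TDMA and -3.41 to -1.91 (median -2.52) in TM, a difference of 4.90 ± 0.45. Kcnn4, a calcium-activated potassium channel, scored 1.15 to 3.18 (median 2.33) in TDMA and -2.85 to -1.25 (median -2.17) in TM, a difference of 4.50 ± 0.42. Nr1h3, which encodes the oxysterol receptor LXR alpha, scored -0.13 to 3.19 (median 2.79) in TDMA and -3.77 to -0.91 (median -2.54) in TM, a difference of 4.32 ± 0.55. These 3 genes separated the populations fully. Pla2g7, the secreted enzyme that breaks down platelet-activating factor, rose by 4.28, and Rara, the retinoic acid receptor alpha, rose by 4.13. Mefv, which encodes the inflammasome sensor pyrin, rose by 4.16, and the membrane protein gene Tmem51 rose by 4.26. Ear2, an RNase of the eosinophil-associated family, rose by 4.30 and was the rise whose groups overlapped. Klra2 and Ear2 belong to families of near-identical genes, so the authors' counting could have split their reads. Their adjusted p-values lay between 5.94e-07 for Klra2 and 6.4e-05 for Ear2. Without TDMA 28, TDMA 31 and TM 27, 13 of the 15 rises were called; Nr1h3 and Ear2 had differences of 3.31 and 3.52 with adjusted p = 0.0526 and 0.0997. Both were called without any library that kept under 50% and without the direction terms.

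The largest falls held genes of mediator synthesis, stress-hormone sensing and membrane traffic. Of the 15 falls taken by the same rule, 7 had no overlap between the groups. Without each library in turn, 10 of the 15 were called, and without TDMA 28, TDMA 31 and TM 27 together, 9 were. Ltc4s, which makes leukotriene C4, scored -3.05 to -0.59 (median -1.86) in TDMA and 1.14 to 1.95 (median 1.48) in TM, a difference of -3.40 ± 0.38 (adjusted p = 6.08e-06). Adrb1, the beta-1 receptor for noradrenaline, scored -2.78 to -0.43 (median -1.99) in TDMA and 0.16 to 2.08 (median 1.25) in TM, a difference of -3.35 ± 0.43. Bin1, a protein that bends membranes, scored -3.45 to -0.70 (median -1.95) in TDMA and 0.96 to 2.47 (median 1.28) in TM, a difference of -3.35 ± 0.47. TDMA and TM did not overlap for Ltc4s, Adrb1 and Bin1. Zcwpw1, a reader of histone marks, fell by 3.84, and Cox6a2, a subunit of cytochrome oxidase known from muscle, fell by 3.41. Rabac1, an acceptor of prenylated Rab proteins, fell by 3.38 with some overlap of the groups. Ltc4s, Adrb1, Bin1, Zcwpw1, Cox6a2 and Rabac1 were called without each library in turn and without all of TDMA 28, TDMA 31 and TM 27.

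Several of the 15 falls rest on a name or a library. Sfrs7, Plec1 and Mtap1s are older names of genes that the table also lists as Srsf7, Plec and Map1s, and the paired rows went opposite ways. Mtap1s fell by 3.41 while Map1s rose by 2.32, both called. Map1s was not called without TM 27, at 1.14, and rose by 3.54 without TDMA 28. Sfrs7 fell by 3.83 while Srsf7 had a difference of 1.78 that was not called, and Plec1 fell by 3.27 while Plec had 1.23, called only without TM 11, TDMA 20 or TM 22. The authors' counting could have split reads between such rows, so these falls are uncertain. Mtap1s was -5.37 without TDMA 28. Without TDMA 28, Sfrs7 was not called at -3.74 and Plec1 was not called at -1.57; Plec1 lost its call when any of 10 libraries was left out. Clec5a is also listed as Mdl1, whose difference of 1.41 had the opposite sign and was not called, so its fall is uncertain too. Ccl4 fell by 3.94, Clec5a fell by 3.65 and the zinc finger gene Zfp120 fell by 3.56, and none was called without TM 27, at -2.71, -3.08 and -2.27. The row rp58, which matched no RefSeq symbol, fell by 3.81.

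Receptors that mark microglia were lower in TDMA. Among purinergic receptors and ectonucleotidases, which sense or break down extracellular nucleotides, 5 of 18 rose and 5 fell, and in centred libraries 4 rose and 7 fell. P2ry12, the ADP receptor most used to mark microglia, fell by 2.43, and by 1.58 without TDMA 28. P2ry13, a related ADP receptor of microglia, scored -2.06 to -0.30 (median -1.03) in TDMA and 0.18 to 1.74 (median 1.20) in TM, a difference of -2.25 ± 0.33. Gpr34, a lysophosphatidylserine receptor of microglia, fell by 2.72. P2ry1, an ADP receptor known from platelets, rose by 2.57, so receptors of the same ligand moved in opposite directions. P2ry10 rose by 1.93. Without TDMA 28, 3 purinergic genes fell. Among receptors of colony-stimulating factors, Csf1r scored -1.54 to -0.45 (median -1.02) in TDMA and 0.42 to 1.06 (median 0.72) in TM, a difference of -1.78 ± 0.28, and Csf3r fell by 2.00. Kit, the stem cell factor receptor, rose by 2.77. The groups did not overlap for P2ry13, Csf1r and Csf3r.

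Transcription factors split between the populations. Of 30 myeloid factors, 5 rose and 7 fell, with a median difference of -0.27, and in centred libraries 5 rose and 13 fell; without TM 27 the falls numbered 4 and without TDMA 28 they numbered 3. Runx3, a Runt-family factor of lymphocytes and other leukocytes, scored 0.94 to 3.42 (median 2.47) in TDMA and -3.48 to 0.66 (median -1.99) in TM, a difference of 4.34 ± 0.61. Runx2, its relative in bone, rose by 2.31, while Runx1 fell by 0.86. The fall of Runx1 was lost without any of TDMA 4, TM 6, TDMA 7, TM 14, TM 27, TDMA 28 and TDMA 31, and was -0.47 without TM 27. Bhlhe40, a basic helix-loop-helix repressor of cytokine genes, rose by 2.80, and Tfec, a macrophage relative of the lysosomal regulator Mitf, rose by 2.77. Gata6, known as the factor of peritoneal macrophages, scored -0.08 to 1.55 (median 0.90) in TDMA and -1.57 to -0.55 (median -1.10) in TM, a difference of 2.03 ± 0.31, below the receptor-gene yardstick of 2.44. Mef2c, a factor of the microglial programme, fell by 1.63, and Irf8, needed by both microglia and monocytes, fell by 1.14. Neither overlapped between groups.

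Genes of TGF-beta signalling, which maintains microglia, did not move one way. Of 26 genes, 7 rose and 4 fell, with a median difference of -0.07, and with library medians subtracted 6 rose and 9 fell. The receptor Tgfbr2 scored -1.68 to -0.04 (median -0.74) in TDMA and 0.27 to 1.84 (median 0.89) in TM, a difference of -1.73 ± 0.33. Tgfbr1, its partner, fell by 1.16 and was not called without TDMA 28, at -0.99. The co-receptor Tgfbr3 rose by 2.36, and the ligand Tgfb2 rose by 2.01. Genes that hold or free the latent ligand were higher too: Ltbp1 rose by 1.88 and Itgb8 by 1.90. The ligand Tgfb1 had a difference of -0.57 ± 0.52 and was not called. Thus the signalling receptors fell while the co-receptor and latency genes rose, at sizes under 2.44. Without TDMA 28, 1 gene of the list fell, and without TDMA 4, 2 fell.

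Adhesion and cytoskeletal genes were called in both directions, and the balance depended on the scaling. Of 17 leukocyte integrins, 6 rose and 3 fell, and in centred libraries 4 rose and 6 fell. Itga4, the alpha-4 chain that binds Vcam1 on vessels, scored -0.13 to 1.93 (median 1.37) in TDMA and -2.41 to -0.17 (median -1.44) in TM, a difference of 2.74 ± 0.50. Itgam, the CD11b chain used to sort myeloid cells, scored -0.996 to -0.62 (median -0.70) in TDMA and 0.05 to 1.29 (median 0.66) in TM, a difference of -1.50 ± 0.31, and Itgb5 fell by 1.65. None of these integrins overlapped between the groups. Of 17 selectin, adhesion and migration genes, 8 rose and 3 fell, with 4 rises left without TDMA 28, and in centred libraries 3 rose and 8 fell. Amica1 and Cd97 stand outside that list and were chosen after their values were seen. Amica1, a junctional adhesion receptor of leukocytes now called Jaml, scored 0.04 to 3.17 (median 1.44) in TDMA and -2.48 to -0.15 (median -1.85) in TM, a difference of 3.30 ± 0.49. Emb, which encodes embigin, rose by 3.31, and the tetraspanin gene Cd81 fell by 2.51. Cd97, an adhesion receptor of leukocytes, rose by 4.04, and by 2.65 without TDMA 28. Of 27 actin and membrane cytoskeleton genes, 7 rose and 2 fell, with 4 rises left without TDMA 28, and in centred libraries 6 rose and 5 fell. Ahnak, a giant scaffold protein beneath the membrane, scored -0.27 to 2.77 (median 1.42) in TDMA and -3.49 to -0.85 (median -2.27) in TM, a difference of 3.80 ± 0.46. Ezr, which links actin to the membrane, rose by 2.85, and Vim, the filament protein vimentin, rose by 1.78. Actb had a difference of 0.21 ± 0.31 and was not called. Among calcium-binding S100 and Ly6 genes 5 of 11 rose and 1 fell, led by S100a6 at 3.51, and in centred libraries 4 rose and 1 fell.

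Plexins receive semaphorins, guidance cues for axons and migrating leukocytes. Of 15 semaphorins, plexins and neuropilins, 10 rose and 2 fell, against 37% and 6.35% of all genes. Their median difference of 1.22 lay below the 1.38 of the olfactory receptor genes. In centred libraries 5 rose and 2 fell, and without TDMA 28 the deposited scores gave 6 rises. Plxnd1 scored -0.15 to 2.47 (median 2.18) in TDMA and -2.42 to -0.56 (median -1.79) in TM, a difference of 3.52 ± 0.43. Plxna1, Plxna2 and Plxnb1 rose by 2.48, 2.47 and 2.42. None of these 4 plexins overlapped between the groups.

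Chemokine receptors and chemokines divided between the populations. Of 16 chemokine and chemoattractant receptors, 7 rose and 1 fell, with 4 rises left without TM 27, and in centred libraries 3 rose and 1 fell. Cxcr4, the receptor for Cxcl12, scored 0.13 to 2.58 (median 2.03) in TDMA and -3.42 to -0.75 (median -1.82) in TM, a difference of 3.76 ± 0.49 (adjusted p = 1.54e-05). Its ligand Cxcl12 rose by 2.23. Ccr2, the receptor that brings monocytes out of bone marrow, rose by 3.26, whereas its ligand Ccl12 scored -0.85 to 0.70 (median -0.29) in TDMA and 0.96 to 2.42 (median 1.40) in TM, a difference of -1.89 ± 0.39. Receptor and ligand thus lay in opposite populations for this pair, and on the same side for Cxcr4 and Cxcl12. Of 8 CXC chemokines, 5 rose and 1 fell, with 3 rises left without TDMA 28, and in centred libraries 3 rose and 1 fell. Cxcl2, a neutrophil attractant, rose by 2.83, and Cxcl13, a B cell attractant, fell by 3.06. Of 11 CC chemokines, 1 rose and 3 fell, with 1 fall left without TM 27, and in centred libraries 1 rose and 4 fell. Ccl8 rose by 3.42 and was not called without TDMA 28, at 3.31.

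Interleukin 1 genes changed in opposite directions within the family. Il1rn, the antagonist, scored 0.43 to 2.82 (median 1.84) in TDMA and -3.52 to 0.38 (median -0.72) in TM, a difference of 2.90 ± 0.50, and Il1b rose by 2.61. Il1a scored -3.14 to -0.45 (median -0.82) in TDMA and 0.38 to 1.79 (median 1.09) in TM, a difference of -2.57 ± 0.44 that was -1.71 without TDMA 28. Of 14 genes of the family, 5 rose and 3 fell, with 1 fall left without TDMA 28, and in centred libraries 4 rose and 5 fell. The antagonist and beta form were thus on the TDMA side, and the alpha form on the TM side. Il18r1, a chain of the interleukin 18 receptor, rose by 1.97, and Il6ra, the interleukin 6 receptor, fell by 1.63.

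Clotting and matrix genes were mostly higher in TDMA in the deposited scores, and so were some matrix protease genes. Of 18 coagulation and plasminogen factors, 11 rose and 3 fell, with a median difference of 1.62. That median lay between the 1.38 of the olfactory and the 1.67 of the vomeronasal receptor genes. Without TDMA 28, 7 rose and 1 fell, and in centred libraries 7 rose and 3 fell. Beside F7 and F10, F13a1, the transglutaminase subunit that crosslinks fibrin, rose by 2.98, and Thbd, the thrombin receptor thrombomodulin, rose by 2.66. Pros1, an anticoagulant and a ligand of Mertk, scored -1.48 to 0.43 (median -1.02) in TDMA and 0.52 to 1.56 (median 1.07) in TM, a difference of -1.76 ± 0.36. The factors F5 and Vwf, best known from liver and endothelium, rose by 2.22 and 2.75. Of 14 matrix metalloproteinases, ADAM proteases and inhibitors, 7 rose and 1 fell, and in centred libraries 6 rose and 4 fell. Their median difference of 0.97 lay below the 1.38 of the olfactory receptor genes. Mmp13, a collagenase, scored 1.38 to 4.40 (median 1.70) in TDMA and -3.28 to 1.17 (median -1.80) in TM, a difference of 3.77 ± 0.68, and Adam8, a leukocyte sheddase, rose by 3.71. Mmp12, the macrophage elastase, rose by 2.44, and the membrane-bound Mmp14 rose by 2.33. Of 20 collagens, laminins and matrix proteins, 15 rose and 1 fell, with a median difference of 1.85, and in centred libraries 11 rose and 2 fell. Emilin2 scored -0.11 to 2.93 (median 2.33) in TDMA and -3.40 to -0.42 (median -1.76) in TM, a difference of 3.74 ± 0.51, and Ecm1 rose by 2.55. The fall in that list was Sparc, a collagen-binding protein that microglia express, at -3.01 ± 0.41, or -1.76 without TDMA 28.

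Some genes known from osteoclasts, the bone-resorbing macrophages, were also higher in TDMA. Of 11 such genes, 6 rose and 0 fell, against 37% of all genes that rose, and in centred libraries 4 rose and 2 fell. Atp6v0d2, a proton pump subunit of osteoclasts, scored 0.06 to 3.96 (median 1.17) in TDMA and -2.38 to 0.05 (median -1.62) in TM, a difference of 3.23 ± 0.43. Gpnmb and Spp1, which encodes osteopontin, rose by 3.16 and 2.55. The regulator Nfatc1 and the receptor Tnfrsf11a, which drive osteoclast formation, were not called in the deposited scores, at -0.42 and -0.41, and in centred libraries Nfatc1 fell by 1.09 and Tnfrsf11a fell by 1.07. Among 17 vacuolar ATPase subunits Atp6v0d2 was the only rise in either scaling, and 1 fell, or 5 in centred libraries.

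Complement and pattern recognition genes showed members on both sides. Of 19 complement components and receptors, 7 rose and 5 fell, a share of rises near the 37% of all genes, with 3 rises and 2 falls left without TDMA 28. In centred libraries 3 rose and 7 fell. Cfp, which encodes properdin, the stabiliser of the alternative pathway, scored 1.01 to 3.30 (median 2.08) in TDMA and -4.06 to 0.58 (median -1.85) in TM, a difference of 3.96 ± 0.54. Cfb, a protease of the same pathway, rose by 2.60. C1qb, of the classical pathway, scored -1.36 to -0.13 (median -0.58) in TDMA and 0.54 to 1.60 (median 1.12) in TM, a difference of -1.76 ± 0.34. Its partners C1qa and C1qc fell by 1.13 and 0.91, and neither was called without TDMA 28, at -0.49 and -0.68. C1qc was also not called without TM 27. Of 20 Toll-like receptors and adaptors, 2 rose and 5 fell, with 2 falls left without TDMA 28 and 3 left without TDMA 4 or TDMA 7, and in centred libraries 1 rose and 5 fell. The RNA sensors Tlr3 and Tlr7 fell by 1.75 and 1.93. Tlr8, a neighbour of Tlr7 on the X chromosome, rose by 2.75, and by 1.55 without TM 27.

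Inflammasome sensors were called on both sides. Of 15 genes, 4 rose and 4 fell, with 2 falls left without TDMA 28, and in centred libraries 4 rose and 8 fell. The rises were Mefv, Nlrc4, Nlrp12 and Nlrp10. Nlrc4, the adaptor for bacterial flagellin, scored 0.25 to 1.41 (median 0.74) in TDMA and -1.63 to -0.89 (median -1.13) in TM, a difference of 2.24 ± 0.35. Aim2, a sensor of DNA, and Naip5, a sensor of flagellin, fell by 1.76 and 1.55. Nlrc4 and Naip5, which act in one complex, therefore went opposite ways. Nlrp3 was not called in the deposited scores, at -0.53, and fell by 1.20 in centred libraries.

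C-type lectins and Ms4a genes were largely on the TDMA side. Of 13 myeloid C-type lectins, 8 rose and 1 fell, with a median difference of 1.89, and in centred libraries 6 rose and 2 fell. Clec12a, an inhibitory receptor, scored 0.17 to 2.86 (median 2.06) in TDMA and -2.88 to -0.59 (median -1.84) in TM, a difference of 3.89 ± 0.46. Clec4a1 rose by 3.66, Mrc1, the mannose receptor, by 3.38, and Clec4n, the receptor dectin-2, by 3.26. Clec7a, the beta-glucan receptor dectin-1, rose by 2.04. The fall was Clec5a, uncertain for its paired row. Of 8 Ms4a genes 6 rose and 0 fell, with 3 rises left without TDMA 28, and in centred libraries 4 rose and 0 fell. Their median difference of 1.56 lay between the 1.38 of the olfactory and the 1.67 of the vomeronasal receptor genes. Ms4a7, known from border macrophages, scored 1.27 to 3.36 (median 2.21) in TDMA and -2.98 to -0.24 (median -1.97) in TM, a difference of 3.90 ± 0.51. The paired receptors Trem1 and Trem2 differed in direction: Trem1 rose by 2.12 and Trem2, the lipid receptor of microglia, fell by 1.77. Of 10 genes known from border-associated macrophages 7 rose and 1 fell, with 4 rises left without TDMA 28, and in centred libraries 6 rose and 1 fell; Cd163 was not called, at 0.74.

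**Figure D3:**
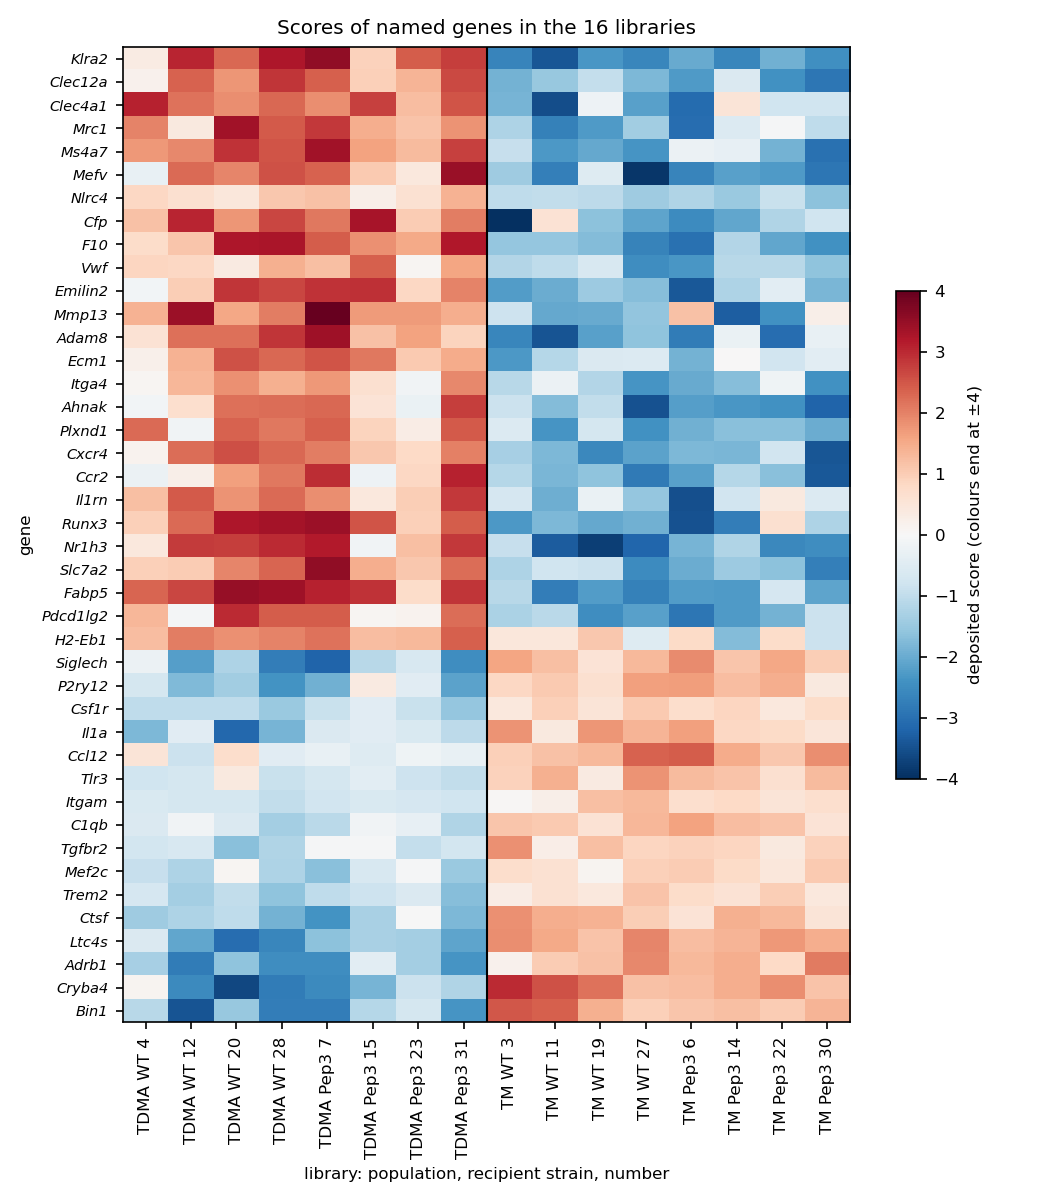
Deposited scores (colour, ending at 4 on either side of 0) of 42 named genes (rows) in the 16 libraries (columns), 8 TDMA libraries on the left and 8 TM libraries on the right, each ordered by recipient strain. The upper 26 genes, Klra2 to H2-Eb1, are mostly red in TDMA and mostly blue in TM. The exception is H2-Eb1, which has a median of 0.45 in TM. The lower 16, Siglech to Bin1, are blue in most TDMA libraries and red in most TM libraries.

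Antigen presentation genes moved apart. Of 12 class II genes, 4 rose and 3 fell, with 0 falls left without TDMA 28, and in centred libraries 2 rose and 4 fell. H2-Eb1 scored 1.22 to 2.38 (median 1.91) in TDMA and -1.74 to 1.08 (median 0.45) in TM, a difference of 1.93 ± 0.39, and H2-Ab1 rose by 1.79. The invariant chain gene Cd74, which escorts class II molecules, was not called, at 0.09. Pdcd1lg2, the PD-1 ligand PD-L2, scored -0.08 to 2.97 (median 1.78) in TDMA and -2.89 to -0.86 (median -2.03) in TM, a difference of 3.59 ± 0.54, whereas Cd274, the ligand PD-L1, was not called at 0.81, though it was without TDMA 4 or TDMA 23. Of 17 class I and loading genes 0 rose and 1 fell. Of 27 type I interferon-stimulated genes 0 rose and 2 fell, and of 12 interferon-gamma GTPases 0 rose and 0 fell. With library medians subtracted the falls in these 3 lists numbered 10, 13 and 6, so these falls depended on the scaling. Isg15 was not called, at -0.47 in the deposited scores, and fell by 1.13 with library medians subtracted.

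Receptors for dying cells also changed in both directions. Of 18 such genes, 5 rose and 6 fell, with 3 rises and 3 falls left without TDMA 28 and 3 rises left without TM 27. In centred libraries 4 rose and 9 fell. Mertk, the receptor that takes up apoptotic cells, fell by 2.17. The scavenger receptor genes Scarf1, Stab2 and Msr1 rose by 3.22, 2.90 and 2.23, and none of them overlapped between the groups. Scarf1 scored -0.05 to 2.24 (median 1.58) in TDMA and -2.84 to -0.61 (median -2.11) in TM. Genes of disease-associated microglia, a state seen around plaques, were divided. Of 20, 6 rose and 5 fell, and in centred libraries 4 rose and 8 fell. Fabp5, Gpnmb, Spp1 and Clec7a were among the rises, and Trem2 and Cst7, a cystatin, were among the falls, Cst7 by 2.23. The falls numbered 3 without any of TM 3, TDMA 4, TM 6, TDMA 7, TM 14, TDMA 23, TM 27 and TDMA 28.

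Metabolic genes changed at few points. Of 27 fatty acid genes, 7 rose and 0 fell, a smaller share than the 37% of all genes, and 4 rose without TDMA 28 or without TM 27. In centred libraries 3 rose and 6 fell. Beside Fabp5, Plin2, which coats lipid droplets, scored 0.73 to 2.81 (median 1.48) in TDMA and -2.13 to -0.09 (median -0.65) in TM, a difference of 2.26 ± 0.43. Slc7a2, an arginine transporter, scored 0.94 to 3.53 (median 1.72) in TDMA and -2.72 to -0.79 (median -1.56) in TM, a difference of 3.79 ± 0.39. Arg1, which breaks down arginine, rose by 3.58 with wide overlap, and was not called without TDMA 28. Slc7a11, the cystine importer, rose by 2.09. Of 21 glycolysis genes 4 rose and 2 fell, or 3 and 6 in centred libraries, and Pgam1 rose by 1.86. Of 18 hypoxia genes 7 rose and 0 fell, a share near the 37% of all genes, with 3 left without TDMA 28 and 4 without TM 27. In centred libraries 4 rose and 2 fell, with a median difference of -0.02. Epas1, the hypoxia factor HIF-2 alpha, rose by 2.80, and Hif1a was not called, at 0.61.

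Lysosomal and mitochondrial genes had more falls than rises. Of 30 lysosomal hydrolases and cathepsins, 2 rose and 8 fell, and 3 fell without TDMA 28. Ctsf, a cysteine cathepsin, scored -2.40 to -0.01 (median -1.36) in TDMA and 0.52 to 1.84 (median 1.34) in TM, a difference of -2.44 ± 0.37, and Ctsd, the aspartic cathepsin, fell by 1.54. Psap, the precursor of lipid-hydrolase activators, rose by 1.16, and had 0.50 with library medians subtracted, not called. Of 29 nuclear-encoded respiratory chain genes 0 rose and 4 fell, with 1 fall without TDMA 28, 2 without TM 27 and 8 without TDMA 31. With library medians subtracted the falls numbered 22 and 13 in these lists. Slc11a1, a metal exporter of the phagosome, fell by 1.47.

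Growth factor genes on the TDMA side included Pdgfc, Ereg and Bdnf, which rose by 2.59, 2.41 and 2.06. Of 17 growth factor genes, 7 rose and 3 fell, a share of rises near the 37% of all genes, with 4 rises and 1 fall left without TDMA 28. In centred libraries 5 rose and 6 fell. Pdgfc scored 0.24 to 1.79 (median 0.92) in TDMA and -2.75 to 0.02 (median -1.03) in TM. Ereg and Bdnf lay under the receptor-gene yardstick of 2.44. Among immediate early genes, 1 of 21 rose and 4 fell, or 0 and 6 in centred libraries; the factor gene Klf2 fell by 1.87 and Jun by 1.43. Of 30 cell cycle and DNA replication genes, 2 rose and 3 fell, and in centred libraries 0 rose and 7 fell. Mki67, a marker of dividing cells, was not called at -0.62 in the deposited scores and fell by 1.29 in centred libraries.

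**Figure D4:**
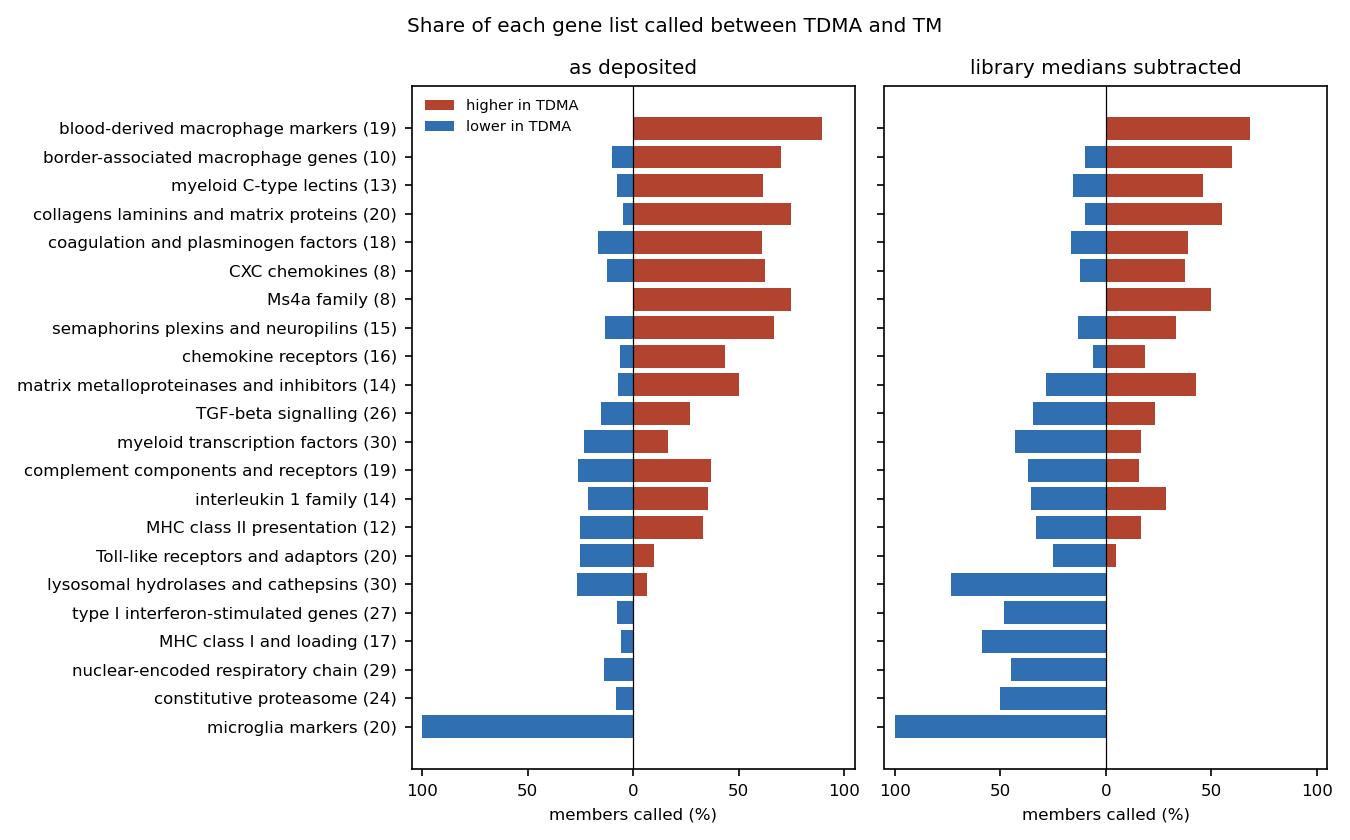
Percent of each gene list's measured members (number in brackets) called higher (red, to the right) or lower (blue, to the left) in TDMA than in TM, in the deposited scores and with library medians subtracted. The blood-derived macrophage markers rise and the 20 microglia markers fall in both panels, whereas lysosomal, interferon, class I, respiratory and proteasome lists extend to the left mainly in the right-hand panel.

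Markers of other cell types were also higher in TDMA, and these shifts ran beside the rises above. All 4 of 4 measured T and NK cell markers rose, at 2 without TM 27. Their mean score ran from -0.07 to 1.69 in TDMA libraries and from -2.40 to 0.06 in TM libraries. Of 5 B cell markers 3 rose, and of 7 dendritic cell markers 4 rose and 1 fell. Of 8 astrocyte markers 6 rose and 1 fell, of 6 neuron markers 5 rose, of 7 endothelial and pericyte markers 6 rose, of 6 glioma markers 5 rose and of 6 oligodendrocyte markers 1 rose. In centred libraries the rises numbered 3 for T and NK cells, 2 for B cells, 3 for dendritic cells and 3 for astrocytes. They numbered 2 for neurons, 2 for endothelium and pericytes, 5 for glioma and 1 for oligodendrocytes. Falls there numbered 1 for B cells, 2 for dendritic cells, 1 for astrocytes and 0 for the other lists just given. The mean score of neuron markers ran from -0.43 to 0.90 in TDMA and from -1.81 to 0.04 in TM, and that of glioma markers from 0.28 to 1.14 in TDMA and from -1.73 to -0.17 in TM. The median differences of these lists lay between 0.23 and 2.11. Those of T and NK cell markers, at 2.11, and glioma markers, at 1.84, exceeded the medians of both receptor families, 1.38 for olfactory and 1.67 for vomeronasal genes. Those of the other lists lay below 1.67. Dendritic rises numbered 2 without TM 27, and astrocyte rises 3 without TDMA 28. Neuron rises numbered 2 or 3 without TDMA 4, TM 6, TDMA 23, TDMA 28 or TDMA 31, and endothelial rises 3 without TDMA 7, TM 27, TDMA 28 or TDMA 31. Scores are relative to a gene's own mean, so they do not tell whether a marker was present at all. The part of these markers in the results was not tested. Neutrophil and mast cell markers were not analysed here.

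The TDMA minus TM difference had the same sign in both recipient strains for 3369 of the 3486 genes higher in both scalings. For the lower genes it was 1088 of 1116. These genes were called on the mean of the strains in the same fit, which favours a shared sign. The counts are therefore no independent test of agreement between strains. A test of the difference between strains found it higher in WT than in Pep3 recipients at 1 gene and lower at 78 with the deposited scores (limma). With library medians subtracted limma called 0 and 0, with 2371 genes at an unadjusted p below 0.05. None of the 994 list genes and none of the 153 genes named here was among the genes called in the deposited scores. Acp5 had a difference of 6.61 in WT and 4.35 in Pep3 recipients, and F7 had 3.08 in WT and 6.84 in Pep3 recipients. Arg1 had 5.38 in WT and 1.78 in Pep3 recipients, and Slc7a2 had 1.57 in WT and 6.00 in Pep3 recipients. None of these strain differences was called. Fits of one recipient strain alone had 2 residual degrees of freedom and called 0 genes by limma, with 2203 genes at an unadjusted p below 0.05 in WT and 1649 in Pep3 recipients.

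**Figure D5:**
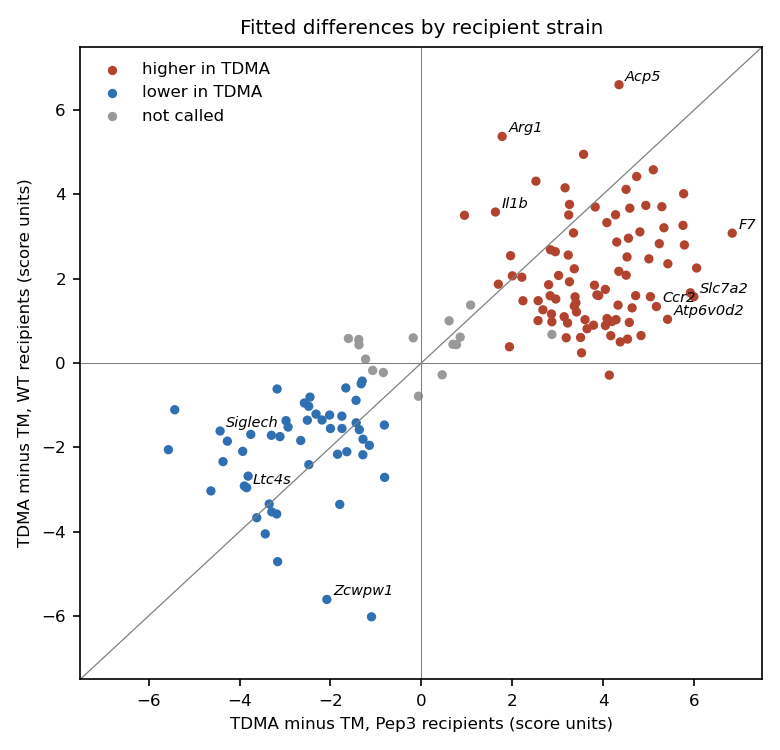
Fitted TDMA minus TM difference in WT recipients (y axis) against Pep3 recipients (x axis), in score units, for the 153 genes named here, coloured by the call over both strains, with the line of equality. The 137 of 138 called genes with the same sign in both strains lie at the upper right and lower left. The call is on the mean of the strains, which favours a shared sign. Of the 138, 110 are farther from 0 in Pep3 recipients. Over all 17586 genes the WT minus Pep3 difference had a median of -0.63, or -0.009 with library medians subtracted.

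Few genes were called between differentiated and undifferentiated tumour macrophages. Against TUMA, TDMA had 0 genes higher and 2 lower (0.0114%) by limma, and 491 genes had an unadjusted p below 0.05. None of the 30 largest rises and falls was among those called. The mean of Acp5 was 3.13 in TDMA and 1.96 in TUMA, a fitted difference of 1.24, and that of Siglech was -1.73 in TDMA and -1.87 in TUMA, a fitted difference of 0.74. Fitted differences are adjusted for the 11 missing directions and need not equal the difference of the means. TUMA against TM shares the TM libraries with the comparison above; it called 6448 genes higher and 913 lower. Tgfbi was higher by 5.06 in TUMA than in TM, beside 4.58 for TDMA, and Siglech had -3.76 beside -3.02.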

How the data were processed

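RNA was measured in 16 libraries, 8 TDMA and 8 TM, of a table that also held 8 TUMA libraries and 8 libraries of microglia from mice with no tumour. The SMART-Seq v4 kit of Clontech, which does not mark strand, turned RNA into cDNA, per the labels' protocols. Per the submitters' processing notes, FastQC, STAR 2.5.0a and RSEM 1.3.0 were used, with the mm9 build. The deposited values are signed scores from -6.50 to 6.92, each gene centred on 0, and the authors' normalization steps and the scale of the score are not given in the sources used here. Depth is therefore unknown. Differences between libraries along 11 directions are missing from the table, whose rank is 21, so these directions were terms of the fit.

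Scores were fitted with limma 3.58.1 in R 4.3.3 (robust empirical Bayes, 15 residual degrees of freedom), with a mean for each population in each recipient strain over all 32 libraries. The TDMA minus TM contrast averaged the recipient strains. P-values were adjusted by Benjamini-Hochberg over 17586 genes, and those below 0.05 were calls. The fit was repeated with library medians subtracted. The procedure was tested on simulated data. The largest 15 rises and 15 falls called in both scalings were taken by rule. Symbols that start with Gm and a digit or end in Rik were left out before ranking. Of the genes taken, those whose symbols look like sequence identifiers were left undescribed. Other genes came mainly from 69 lists. Amica1 and Cd97 were chosen after their values were seen. The members, lists and named genes were chosen with earlier results of these data known. Alternatives were other scalings, library subsets, weights, no direction terms, no robust option, a filter on SD and leaving out each library. Sequences came from RefSeq on GRCm38.p6.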

Additional observations from a re-analysis of the deposited data

Results flagged for a closer look

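A library stood apart from the other 7 of its group, by Dixon's test, in 12 of the 306 groups of 8 examined (2 populations for each of 153 genes); chance gives about 1 in 20. Among TDMA libraries, Fabp5 was 0.75 in TDMA 23, with the next at 2.34, and Tmem51 was 1.28 in TDMA 23, with the next at 2.24. TDMA 20 stood apart for Map1s at -1.04, Tlr3 at 0.39 and Psap at 0.34. Trem1 was -1.37 in TDMA 15. Among TM libraries, Mtap1s was -0.21 in TM 22, Ccl8 was -3.17 and Il6ra -0.35 in TM 19, Tlr7 was -0.32 in TM 3, Aim2 was -0.69 in TM 30 and Clec7a was -2.38 in TM 11. None of these libraries is among those that kept under 50% of their variation.

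The TDMA minus TM difference was lower in WT than in Pep3 recipients at 78 genes and higher at 1 in the deposited scores. With library medians subtracted limma called 0 and 0, with 2371 genes at an unadjusted p below 0.05. No named gene was among the genes called in the deposited scores. A difference between recipient strains in TDMA minus TM cannot be told apart from experiment number. Where TDMA carry the graft's genotype, it cannot be told apart from the genotype of the sorted cells either.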

How the results depend on the processing

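The count of genes higher in TDMA, 6510, and of genes lower, 1116, moved most with the scaling and with how many libraries set the spread. With library medians subtracted they were 3486 and 3385. With only the 16 libraries of the populations compared, which leave 3 residual degrees of freedom, they were 48 and 7, with 5148 genes at an unadjusted p below 0.05. In WT recipients alone and in Pep3 recipients alone limma called 0 and 0, with 2203 and 1649 genes at an unadjusted p below 0.05. Without TDMA 28, TDMA 31 and TM 27, an alternative chosen after seeing the data, they were 662 and 81. In the genes with the higher SD alone, 730 were lower; fewer genes were tested. Leaving out each library gave 4162 (without TM 27) to 6527 genes higher and 420 (without TDMA 28) to 1140 genes lower. The other settings gave 4620 to 7471 higher and 836 to 1615 lower. No paired analysis was run, because each library has its own number and the labels name no pairs. No term for the order of the library numbers was fitted. Sign reversals were Plec1 at 0.63 with only the 16 libraries; Sfrs7 at 0.79, Plec1 at 3.00, rp58 at 0.59, P2ry10 at -2.17, Ltbp1 at -0.54, Ccl12 at 0.33, Spp1 at -0.53 and Psap at -0.044 in WT recipients alone; and Zfp120 at 6.90 and Cst7 at 0.23 in Pep3 recipients alone. The cause was not tested.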

Other observations

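In the table, 278 pairs of rows name 1 gene by a RefSeq symbol and an older synonym. Both rows were called in 42 pairs, in the same direction in 37 and in opposite directions in 5. Only 1 row was called in 97 pairs, and neither in 139.
Among the named genes not described above as paired, Stab2 is also listed as MFEEL-2, with a difference of 1.19, and Tfec as Tcfec, with 1.51; both of these older rows were called higher, as Stab2 and Tfec were.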
